A study of Mus musculus with 2 samples.

Results

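Neutrophil genes were compared between 2 arrays of mouse teratoma RNA. The set holds 9 genes of 12393 that the array could name, chosen by symbol: the calprotectin genes S100a8 and S100a9, the granule genes Elane, Mpo, Prtn3, Ctsg, Camp and Ngp, and the receptor gene Csf3r. Every probe set annotated with one of these symbols alone was taken, which gave 1 probe set for each gene. Teratomas are growths of several mature tissue types that arise from transplanted pluripotent stem cells. One array held RNA of tumours from C57BL/6 (B6) embryonic stem (ES) cells (called ES tumours), the other RNA of regressing tumours from EiPS cells, reprogrammed cells whose tumour source is also labelled 1E12 iPS (called EiPS tumours). Both lines carry the B6 label, both were grown under the skin of male B6 mice, and each pool combined 2 tumours removed at week 6. The labels give no host age, no other genotype and no treatment. With 1 array per group no difference below could be tested, and all values compare these 2 pools. In bulk tumour RNA, fewer cells of a type and less RNA per cell cannot be told apart.

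Neutrophils carry ready-made antimicrobial proteins. Primary granules, filled at the promyelocyte stage in bone marrow, hold myeloperoxidase (Mpo) and the serine proteases neutrophil elastase (Elane), proteinase 3 (Prtn3) and cathepsin G (Ctsg). Secondary granules, filled later, hold the cathelicidin Camp and the neutrophilic granule protein Ngp. S100a8 and S100a9 lie outside the granules: they pair in the cytosol as calprotectin, which binds calcium, zinc and manganese, and they are also made by monocytes and by stressed keratinocytes. Transcripts of the primary granule proteins are abundant in marrow precursors and scarce in mature neutrophils, whereas S100a8 and S100a9 transcripts stay abundant in circulating cells. Csf3r, the receptor for granulocyte colony-stimulating factor, stays on the mature cell.

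The comparison sets the neighbouring pair S100a8 and S100a9 against the granule genes, among them the neighbouring pair Prtn3 and Elane. In the RefSeq annotation no gene lies between S100a8 and S100a9 on chromosome 3, and none between Prtn3 and Elane on chromosome 10. Camp and Ngp share chromosome 9 with 8 protein-coding genes between them. The promoter windows of both neighbouring pairs are shown because the pairs differed in the array values that follow. Each window has 300 bases and begins 250 bases before the annotated start (RefSeq, GRCm38.p6): S100a8 at chr3:90668821-90669120 (plus strand), S100a9 at chr3:90695672-90695971 (minus), Prtn3 at chr10:79879417-79879716 (plus) and Elane at chr10:79886062-79886361 (plus). Capitals mark matches, on either strand, to TATAAA (the TATA box), GGAAGT (a core of sites of the ETS family, to which PU.1 belongs), TTGCNNAA (a form of the C/EBP site) and TGANTCA (the AP-1 site).
S100a8: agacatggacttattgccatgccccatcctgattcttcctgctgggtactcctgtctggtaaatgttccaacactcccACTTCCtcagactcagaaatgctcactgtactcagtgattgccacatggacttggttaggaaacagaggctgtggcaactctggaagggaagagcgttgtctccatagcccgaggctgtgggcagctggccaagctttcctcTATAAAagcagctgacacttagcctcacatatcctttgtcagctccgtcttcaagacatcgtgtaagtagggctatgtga
S100a9: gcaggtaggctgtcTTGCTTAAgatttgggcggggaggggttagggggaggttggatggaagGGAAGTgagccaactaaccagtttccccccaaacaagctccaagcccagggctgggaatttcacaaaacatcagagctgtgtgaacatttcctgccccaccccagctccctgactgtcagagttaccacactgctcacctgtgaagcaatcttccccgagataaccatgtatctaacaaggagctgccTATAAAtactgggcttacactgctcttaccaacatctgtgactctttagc
Prtn3: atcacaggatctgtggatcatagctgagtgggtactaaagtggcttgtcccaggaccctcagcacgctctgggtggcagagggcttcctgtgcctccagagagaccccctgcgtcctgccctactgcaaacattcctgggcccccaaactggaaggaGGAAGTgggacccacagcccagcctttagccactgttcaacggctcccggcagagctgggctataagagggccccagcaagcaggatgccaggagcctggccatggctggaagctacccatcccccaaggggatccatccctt
Elane: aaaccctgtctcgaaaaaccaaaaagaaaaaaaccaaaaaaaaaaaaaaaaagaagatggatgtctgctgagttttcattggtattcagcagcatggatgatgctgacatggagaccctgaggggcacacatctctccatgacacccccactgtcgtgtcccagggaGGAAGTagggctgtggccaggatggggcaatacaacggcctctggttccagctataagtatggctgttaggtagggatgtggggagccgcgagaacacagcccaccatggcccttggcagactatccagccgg

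All 9 genes had a promoter window in the table. GGAAGT was found in 6 of the 9, namely S100a8, S100a9, Elane, Mpo, Prtn3 and Ctsg, and in 23.8% of all 32851 windows. TATAAA was found in 3 of the 9 and in 13.6% of all windows. In S100a8 it began 30 bases before the start, in S100a9 at the annotated start itself, and in Ctsg it lay on the opposite strand. TTGCNNAA was found in 2 of the 9, S100a9 and Ngp, against 10.8% of all windows, and TGANTCA in 0 of the 9 against 7.81%. No match overlapped another motif. These matches describe the letters of the windows and do not show that a factor binds there.

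The arrays carry 22690 probe sets, and the values are MAS5 signals, a brightness on a linear scale that the authors had scaled alike on both arrays. A signal floor of 26.0 was set from 72 probe sets of olfactory, vomeronasal, taste and trace amine receptors, as the 90th percentile of their signals. A gene above the floor on 1 array or more was called measured. A signal under the floor was set to it, so such a difference is a bound, written "at least". Differences are log2 signals of EiPS tumours less those of ES tumours. The median difference over 10953 measured genes was 0.07, and 5.79% of genes were higher by 2-fold or more in EiPS tumours and 3.05% lower by as much. Higher genes made up 65.5% of all 2-fold differences, but 52.96% after quantile normalization, 52.5% with equal array medians and 56.8% after loess scaling. Measurement noise could be gauged only from probe sets of the same gene, whose differences had an SD of 0.39 over 3799 genes, and 0.54 at signals under 100. That gauge leaves out variation between tumours and between arrays.

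With the floor in use, S100a8 and S100a9 had larger differences between the groups than each of the 5 measured granule genes of the set, of which Camp and Ngp have only bounds. With no floor the Camp difference (2.96) was larger than that of S100a9 (2.58). Ctsg (2.28, from signals under the floor in both groups) was then above S100a8 (0.97), and Ngp (0.94) was close to it. Elane, Mpo and Prtn3 stayed below S100a8. Of the 9 genes, 8 were measured, and 1 of these, S100a9, was at least 2-fold higher in EiPS tumours, against the 5.79% of all measured genes. None was at least 2-fold lower, against 3.05%. By any amount, 6 of the 8 were higher and 2 lower, against 56.2% higher and 43.8% lower among all measured genes. Camp and Ngp passed the floor in EiPS tumours alone, so they could only count as higher. The median over the 8 genes was 0.44. Against the 98th percentile of the silent receptors (49.0), 4 of the 9 were above on 1 array or more, namely S100a8, S100a9, Csf3r and Prtn3. The label of granule genes thus covers transcripts that mostly gave signals in the range of silent genes.

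**Figure D1:**
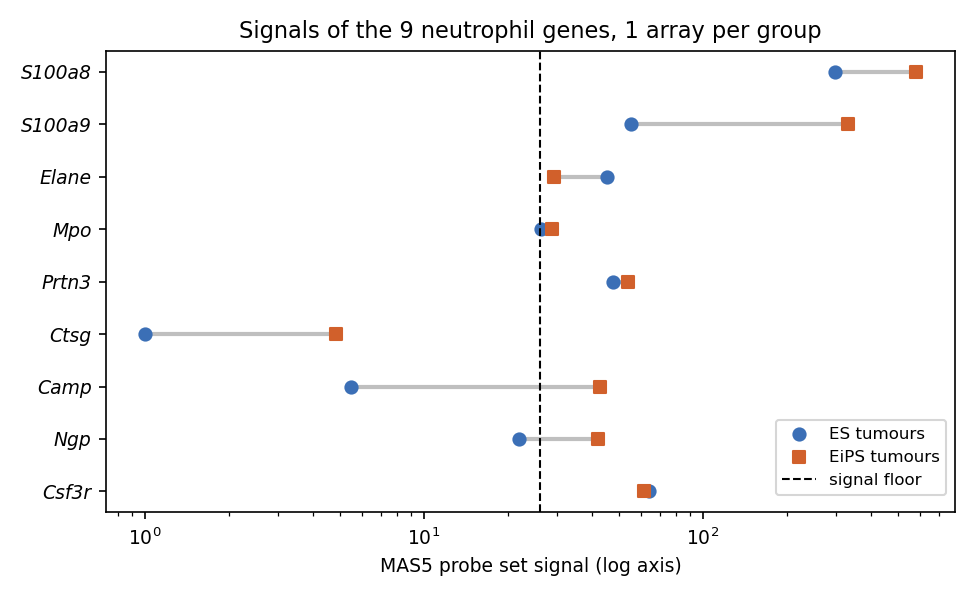
Signal of each of the 9 genes in ES tumours (circles) and EiPS tumours (squares) on a logarithmic axis, 1 array each, with the signal floor of 26.0 as a dashed line. S100a8 and S100a9 lie well to the right of the floor in EiPS tumours, while the granule genes sit near or below it.

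S100a9, the calprotectin subunit that carries the long C-terminal tail, had a signal of 55.2 in ES tumours and 331 in EiPS tumours. It was thus 6.00-fold higher in EiPS tumours, a log2 difference of 2.58. Only 41 of the 10953 measured genes, 0.374%, had a larger difference in that direction. At least 4-fold differences of this direction were seen for 0.822% of all measured genes. The value of S100a9 was 2.41 after quantile normalization, and 1.73 with a floor of 100, where it becomes a bound.

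S100a8, its partner, had a signal of 297 in ES tumours and 581 in EiPS tumours. The difference of 0.97, or 1.96-fold, fell just under the 2-fold line, and 689 measured genes (6.29%) had a larger one. Both calprotectin genes were higher in EiPS tumours, but by unlike amounts: the S100a8 signal in ES tumours was already far above the floor, while that of S100a9 was close to the 98th percentile of the silent receptors. The S100a8 probe set is of the kind that the array's design marks as shared by several transcripts, so its signal may include other RNA. The 3 genes whose pair of log2 signals came nearest to that of S100a8 were Rps25, Myo9b and Bcl2l11, at distances of 0.04, 0.04 and 0.05. For S100a9 they were Mmp12, Adm and Gdap10, at 0.16, 0.20 and 0.32. With 2 arrays this likeness describes 2 numbers per gene and carries no further meaning.

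Primary granule genes were at or near the floor in both groups and had no 2-fold difference. Mpo, which makes hypochlorous acid, had signals of 26.2 and 28.8 in ES and EiPS tumours, a log2 difference of 0.14. Prtn3 had signals of 47.6 and 54.0, a difference of 0.18. The signs of both turned with the scaling: Mpo differed by -0.11 and Prtn3 by -0.09 after quantile normalization, and by -0.11 and -0.02 after loess scaling. Elane, the protease encoded next to Prtn3, went the other way, with 45.3 in ES tumours and 29.2 in EiPS tumours, 1.55-fold lower in the latter (-0.63). Ctsg, with signals of 0.997 and 4.83, was under the floor in both groups, and no fold is given. All of these signals lie within the range of the silent receptors up to their 98th percentile, apart from that of Prtn3 in EiPS tumours.

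The secondary granule genes Camp and Ngp passed the floor in EiPS tumours alone. Camp, which encodes the cathelicidin precursor, had signals of 5.49 and 42.8 and was at least 1.65-fold higher in EiPS tumours. Ngp, a cathelicidin-related protein, had 21.8 and 42.0 and was at least 1.62-fold higher. Neither passed 2-fold with the floor in use. Among the 1954 measured genes with both signals under 100, a range that holds all 5 measured granule genes, 9.16% were higher by 2-fold or more and 2.51% lower. The Camp bound rests on the floor: at the 75th percentile of the silent receptors (19.7) its difference was 1.12, and with no floor 2.96. At the 98th percentile neither gene was measured.

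Csf3r, the only receptor among the 9, had 63.97 in ES tumours and 61.3 in EiPS tumours, a difference of -0.06. Its signals were above the 98th percentile of the silent receptors in both groups and nearly equal. The mean difference of S100a8 and S100a9 was 1.78, and the median of the 5 measured granule genes 0.18. The calprotectin difference exceeded the granule difference by 1.60 on the log2 scale, or 3.02-fold. That gap has no test and ranged from 1.20 to 2.40 over the 9 alternative settings that gave it, with the highest value when the shared S100a8 probe set was left out. It sets 2 genes with signals far above the floor in EiPS tumours against 5 genes near it, where a floor shrinks differences.

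Other granule proteins of neutrophils were mostly higher in EiPS tumours: 8 of the 9 measured were higher by any amount, against 56.2% of all measured genes. Mmp8 and Chil3 passed the floor in EiPS tumours alone, so they could only count as higher. Of the 7 above the floor in both groups, only Cd177 was lower. Of 10 listed genes, 9 had a probe set of their own and were measured, and the median was 0.95. By 2-fold or more, 4 were higher in EiPS tumours, against 5.79% of all measured genes, and 1 was lower, against 3.05%. Lcn2 (lipocalin 2, which binds bacterial siderophores) had 330 and 4013 in ES and EiPS tumours, 12.1-fold higher in the latter. Ltf (lactoferrin, an iron-binding protein) had 1434 and 3901, 2.72-fold higher. Both are also secreted by glandular and airway epithelium. Hp (haptoglobin, also a liver product) had 82.0 and 475, 5.79-fold higher. Chil3, a chitinase-like protein of granulocytes and macrophages, had 11.8 and 342, at least 13.2-fold higher.

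The other 5 genes of that list did not reach 2-fold in the higher direction with the floor in use. Mmp8, the neutrophil collagenase, had 1.49 in ES tumours and 27.9 in EiPS tumours, just over the floor, and was at least 1.07-fold higher, a bound that says little of its size. Mmp9 (gelatinase B) had 47.1 and 82.2 by its brighter probe set, 1.74-fold higher. Cd177, a surface and secondary granule glycoprotein of neutrophils, had 205 and 74.8 and was 2.74-fold lower in EiPS tumours. Lyz2, the lysozyme of macrophages and granulocytes, was 1.93-fold higher and Pglyrp1, a peptidoglycan-binding protein, 1.32-fold. Bpi had no probe set with its symbol alone.

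**Figure D2:**
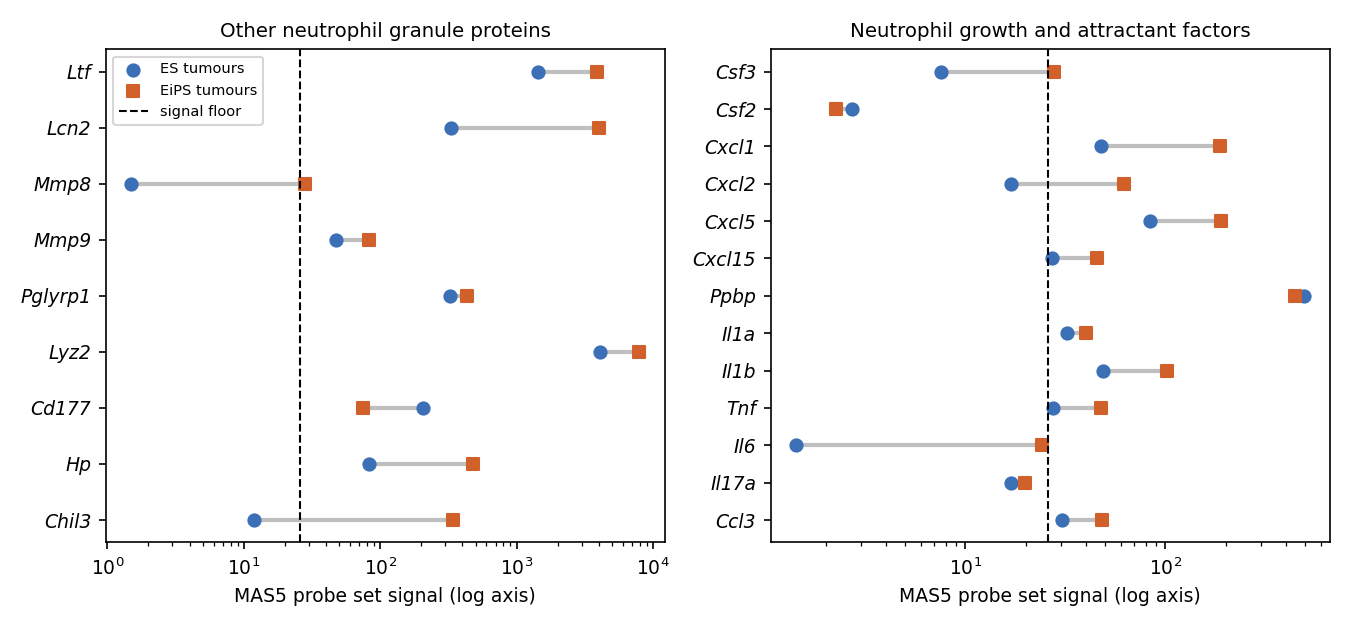
Signals in ES tumours (circles) and EiPS tumours (squares) on logarithmic axes for other granule proteins (left) and for growth and attractant factors of neutrophils (right), 1 array each, with the floor of 26.0 dashed. Chil3, Mmp8 and Lcn2 span the widest gaps among the granule proteins, that of Mmp8 almost wholly below the floor, and Cd177 runs the opposite way. Cxcl1 spans the widest gap among the attractants above the floor in both groups.

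Factors that call or feed neutrophils were mostly higher in EiPS tumours. Of 13 genes with a probe set, 10 were measured and 9 of these were higher by any amount, against 56.2% of all measured genes. Cxcl2 and Csf3 passed the floor in EiPS tumours alone, so they could only count as higher. The median was 0.77. By 2-fold or more, 4 were higher, against 5.79% of all measured genes, and 0 lower, against 3.05%. These 4 were the CXCR2 ligands Cxcl1 (47.4 and 188, 3.96-fold), Cxcl2 (16.9 and 62.0, at least 2.39-fold) and Cxcl5 (83.5 and 190, 2.27-fold), and the inflammasome-processed cytokine Il1b (48.7 and 102, 2.09-fold). Csf3, the ligand of Csf3r, had 7.54 and 27.9, at least 1.07-fold higher. Tnf and Ccl3 were 1.73-fold and 1.58-fold higher. Ppbp, a platelet chemokine, differed by -0.15. Csf2, Il6 and Il17a were under the floor in both groups.

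Surface proteins of neutrophils were unevenly measurable. Of 13 genes with a probe set, 10 were measured, and the median was 0.43. C5ar1 and Clec4e passed the floor in EiPS tumours alone, so they could only count as higher. By 2-fold or more, 3 were higher, against 5.79% of all measured genes, and 0 lower, against 3.05%. Clec4d, a C-type lectin of neutrophils and macrophages, had 35.6 and 233 and was 6.55-fold higher in EiPS tumours, by a probe set of the shared kind. Il1r2, a decoy receptor for interleukin 1, was 2.17-fold and Cxcr4, the chemokine receptor that holds neutrophils in marrow, 2.09-fold higher. The beta-2 integrin chains Itgam and Itgb2, which pair as Mac-1, differed by -0.30 and 0.33. Cxcr2, the receptor for the attractants above, had 9.11 and 6.61 and was under the floor in both groups, as were Trem1 and Ltb4r1. Ly6g and Fpr1 had no probe set with their symbol alone, so the mouse neutrophil antigen Ly6G was not analysed here.

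Of 5 measured genes of the oxidase that neutrophils and macrophages use to make superoxide, none was past 2-fold. Among all measured genes 5.79% were higher and 3.05% lower by as much. The oxidase had a median of 0.28. Its membrane subunits diverged, with Cyba 1.86-fold higher and Cybb 1.55-fold lower in EiPS tumours. Ncf1, a cytosolic subunit, was at least 1.68-fold lower on its brighter probe set and higher on its other, 11.9 and 31.6. Without probe sets of the shared kind, which removes Cyba, the oxidase median was -0.18. Among transcription factors of granulocyte development, 6 of 7 with a probe set were measured, with a median of 0.38. At least 2-fold higher was 1 of them, against 5.79% of all measured genes. That gene was Cebpd, 3.38-fold higher by its brighter probe set (384 and 1297), while its other probe set, at 63.1 and 55.3, was lower. Cebpa, which starts the granulocyte programme, was 1.59-fold higher and Spi1 (PU.1) 1.28-fold. Gfi1 was under the floor in both groups, and Cebpe, the factor of secondary granule genes, had no probe set of its own.

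Among the other listed S100 genes with a probe set, none was higher by 2-fold or more in EiPS tumours, against 5.79% of all measured genes. All 11 of these were measured, 1 was lower by 2-fold or more, against 3.05%, and the median was -0.06. S100a7a and S100a11 had no probe set with their symbol alone. S100a6 had 4935 and 4971 in ES and EiPS tumours, and S100a4, a gene of motile and mesenchymal cells, 1709 and 1902. S100a10, the annexin A2 partner, was 1.66-fold higher and S100a14, an epithelial member, 1.48-fold. S100g, the calcium carrier calbindin-D9k, had 2045 and 413, 4.95-fold lower in EiPS tumours. Receptors through which extracellular calprotectin signals were both higher: Ager (RAGE) had 26.0 and 92.7, 3.56-fold, from a B6 ES signal just over the floor, and Tlr4 57.4 and 85.4, 1.49-fold. Cd36, which takes up fatty acids that calprotectin binds, was 1.51-fold higher.

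Inhibitors of the granule proteases went in both directions. Of 8 measured genes, 3 were higher by 2-fold or more, against 5.79% of all measured genes, and 0 lower to that degree, against 3.05%. The median was 0.68. Slpi, the secretory inhibitor of elastase and cathepsin G, had 57.6 and 504, 8.76-fold higher in EiPS tumours. Serpina3n, an inhibitor of cathepsin G in the mouse, had 343 and 2316, 6.74-fold higher. Serpina1b, an alpha-1-antitrypsin of liver, had 8.42 and 130 by its brighter probe set, at least 5.01-fold higher. It passed the floor in EiPS tumours alone, so it could only count as higher. Both of its probe sets are of the shared kind. The related gene Serpina1c was 1.42-fold higher. Without shared probe sets the median of the inhibitor list was 0.51. Serpinb1a, the intracellular elastase inhibitor of neutrophils, had 1671 and 891, 1.87-fold lower.

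**Figure D3:**
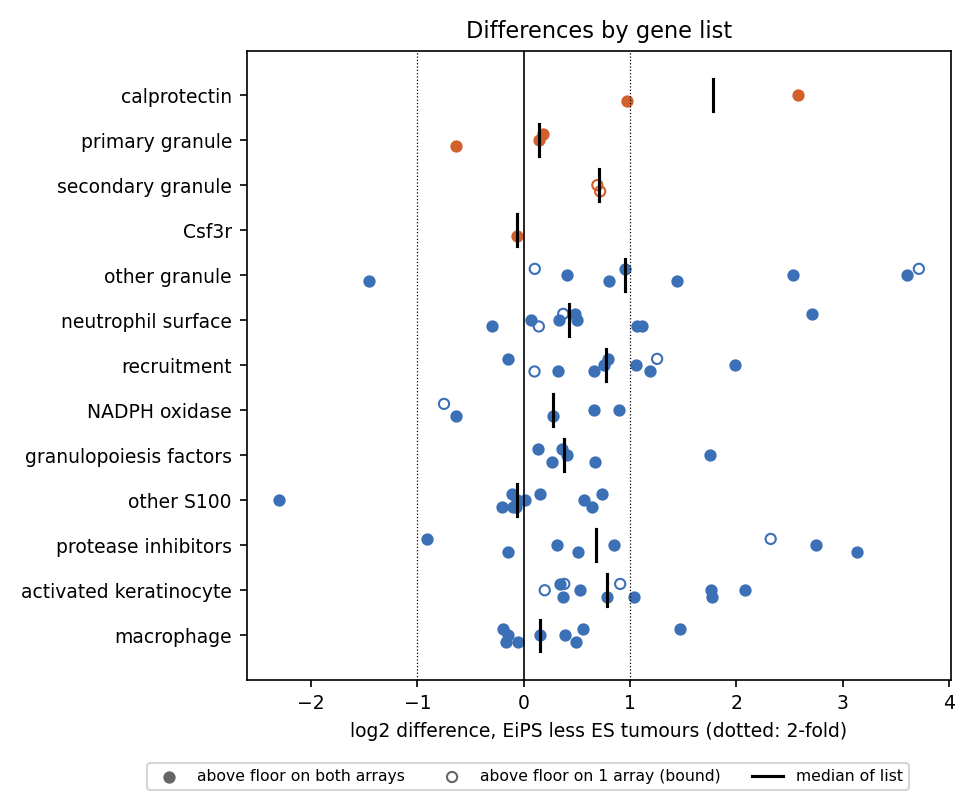
Log2 difference between EiPS and ES tumours for each measured gene of 13 groups (filled, above the floor on both arrays; open, a bound from 1 array), with the group median as a black bar and dotted lines at 2-fold. The 9 genes of the set are in the top 4 rows. S100a8 and S100a9 lie right of the reported values and bounds in the primary and secondary granule rows but not right of all other granule proteins, and the activated keratinocyte row lies wholly right of 0.

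Keratinocytes, mononuclear phagocytes and mast cells can make some of these transcripts, so their markers were examined beside them. Of 11 activated keratinocyte markers with a probe set, all were higher in EiPS tumours, against 56.2% of all measured genes. Krt16, Sprr1b and Sprr2h passed the floor in EiPS tumours alone, so they could only count as higher. The other 8 were above it in both groups. By 2-fold or more, 4 markers were higher, against 5.79% of all measured genes, and the median was 0.78. Their summed signal was 3165 in ES tumours and 6599 in EiPS tumours. Krt6b, a keratin of stressed epidermis, had 123 and 418, 3.39-fold higher, Sprr1a, a cornified envelope protein, 264 and 902, 3.42-fold, and Krtdap 354 and 1500, 4.23-fold. None of the 11 was under the floor in both groups. Their part in the S100a8 and S100a9 differences was not tested.

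Macrophage markers went both ways, with 5 higher and 4 lower of those measured, against 56.2% higher and 43.8% lower among all measured genes. Of 10 with a probe set, 9 were measured, and 1 was at least 2-fold higher, against 5.79% of all measured genes. That gene was Msr1, a scavenger receptor, 2.78-fold higher. The median of the macrophage markers was 0.15, or -0.09 with quantile and -0.02 with loess scaling. Their summed signal was 8949 in ES tumours and 10732 in EiPS tumours. Csf1r, the growth factor receptor of macrophages, had 2507 and 2269, and Adgre1 (F4/80) 378 and 365. The complement genes C1qa, C1qb and C1qc were 1.31-fold, 1.47-fold and 1.41-fold higher in EiPS tumours. Ptprc (CD45), present on all leukocytes, had 295 and 396, 1.34-fold higher in EiPS tumours. Of 8 mast cell markers, which bear on Ctsg, 4 were under the floor in both groups (Mcpt4, Tpsb2, Fcer1a and Ms4a2), against 1440 of all 12393 genes. The summed signal of the 8 was 677 and 768. Of the other 4, Kit was 1.60-fold, Cpa3 at least 1.44-fold and Cma1 at least 1.23-fold higher. Cpa3 and Cma1 passed the floor in EiPS tumours alone, so they could only count as higher. Hdc, which makes histamine, had 316 and 148 and was 2.13-fold lower by its brighter probe set, while its other probe set, at 149.9 and 173, was higher. Both probe sets of Hdc are of the shared kind. The mast cell median of 0.41 ranged from -0.21 to 1.13 over the alternatives. Of 5 eosinophil markers only Epx was measured, above the floor in ES tumours only and lower by at least 1.44-fold in EiPS tumours, and the summed signal was 91.6 and 54.3.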

How the data were processed

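Intensity values per probe set were deposited on a linear scale. The authors used Affymetrix Expression Console and MAS5, per the submitters' processing notes, whose versions and settings the sources used here do not give. Per the labels' protocols, 5 µg of total RNA went into biotin labelling. The 2% trimmed mean was 500.2 on both arrays, which shows a common scaling; it was kept. MAS5 takes mismatch probes off the signal, so weak signals are unsteady, and relative scaling does not show a change in total RNA. The number of arrays, 1 per group, limits the precision.

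Of 22690 probe sets, 20380 had 1 gene symbol, 691 several and 1555 none; 64 were controls. Symbols were updated by Entrez identifier with RefSeq (20351 matched, 29 kept). Where a gene had several probe sets, the brightest by mean log2 signal stood for it. No test was run. The genes named are the 9 members, the nearest patterns, and genes of fixed lists of markers and pathways. Members and lists were chosen with earlier results of these data known. The calculation was tested on simulated data. Alternatives were other floors, log2(signal + 64), quantile, median and loess (span 0.4) scaling, averaged probe sets and leaving out shared probe sets. Shared probe sets were all those with names ending in _a_at, _s_at or _x_at, kinds that the removal did not tell apart. Python 3.11.15, pandas 2.3.3 and statsmodels 0.14.6 were used.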

Additional observations from a re-analysis of the deposited data

How the results depend on the processing

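No paired analysis was possible because each group has 1 array. The floor set most of what moved. With it at the 75th percentile of the silent receptors, 2 genes were at least 2-fold higher (S100a9 and Camp), and with no floor 3 (also Ctsg), with a median of 0.94 over all 9 genes (0.44 as reported). A floor of 100 left S100a8 and S100a9 alone, with a median of 1.35 and an S100a9 difference of 1.73; log2(signal + 64) gave 1.73 for S100a9 and 1.20 for calprotectin less granule genes. Without shared probe sets S100a8 dropped out and that gap was 2.40; at a floor of 100 it could not be computed. The median over the measured members was 0.08 with log2(signal + 64), 0.18 without shared probe sets, and 0.19 and 0.27 with quantile and loess scaling. S100a8 ranged from 0.84 to 0.97 over 9 alternatives, and no gene was at least 2-fold lower under any of 10. Equal array medians moved the median of all genes from 0.07 to -0.06. Of 205 other values, covering single genes and list medians, 189 moved by less than the SD between probe sets and 16 moved by more. The reported values behind them were all under 2-fold. Under some settings the sign turned for Mpo, Prtn3 and the median of the granule genes. It also turned for the medians of the macrophage, mast cell, oxidase, other S100 and granule cluster neighbour lists. Signals under the floor cannot be ordered, and without replicate arrays the spread between tumours is unknown.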

Other observations

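Genes that lie in the same chromosomal clusters as the granule genes were mostly silent by the same floor. Of 13 with a probe set, 10 were under the floor in both groups, against 1440 of all 12393 genes. Among the 10 were the granzymes Gzmb to Gzmg and the mast cell proteases Mcpt1, Mcpt2, Mcpt4 and Mcpt8. These granzymes and proteases share the Ctsg locus in the mouse. Cma1, a mast cell chymase of that locus, had 8.67 and 31.9 in ES and EiPS tumours and was at least 1.23-fold higher in EiPS tumours. The peroxidase genes Lpo and Epx, relatives of Mpo, were above the floor in ES tumours only: Lpo had 47.5 and 7.93 and was lower by at least 1.83-fold, and Epx had 37.4 and 15.5. Platelet markers had a median of -0.26 over 4 measured genes, with Pf4 1.24-fold higher and Gp1bb 1.995-fold lower in EiPS tumours. Erythroid markers had a median of 0.60 over 3, led by Alas2, which starts haem synthesis in red cells, at least 4.06-fold higher. Alas2 and Slc4a1 passed the floor in EiPS tumours alone, so they could only count as higher. Only Hbb-b2 was above the floor in both groups. The erythroid median was 2.15 with probe sets averaged, and the other probe set of Hbb-b2 had 2.32 and 83.9.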
